A study of Arabidopsis thaliana with 12 samples.

Results

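The comparison asks what the active FRI allele of Sf-2 did in shoot apices of Arabidopsis thaliana that had no working FLC. It rested on 3 arrays titled FRI(Sf-2)-flc-3 and 3 titled fri(Col)-flc-3, matched by day, which were 6 of the 12 arrays of the series. The members were chosen by their titles alone.

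Plants carrying FRI(Sf-2)-flc-3 had an active FRIGIDA (FRI) allele brought by introgression from San Feliu-2 (Sf-2) into a Columbia (Col-0) background, together with the flc-3 deletion in FLOWERING LOCUS C (FLC). Plants carrying fri(Col)-flc-3 had the Col-0 allele of FRI and the same deletion, so neither genotype had an intact FLC. The other 6 arrays held the same pair of FRI alleles with FLC intact, in FRI(Sf-2)-FLC(Col) and in the wild type fri(Col)-FLC(Col). All plants were kept at 21 °C, first under 9 h of light and 15 h of darkness (short days) for 30 days. Long days, with 16 h of light and 8 h of darkness, followed, and total RNA from shoot apices was measured at 0, 2 and 4 days after the shift, on 1 array for each genotype and day. No genotype and day had a replicate. The labels did not give the number of plants pooled or the hour of harvest, and no plants kept in short days after day 0 were analysed here. An introgressed allele comes with a stretch of the donor's chromosome around it, and the labels did not give the length of that stretch.

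FRI is a plant protein that works as a scaffold, bringing transcription and chromatin factors to FLC and raising its transcription. FLC is a MADS-box repressor that holds back the floral integrators FT and SOC1 until a cold winter has silenced it. The Col-0 allele of FRI is a loss-of-function allele, and plants with an active allele flower late because FLC is high. Where FLC is deleted, the best-known target of FRI is gone, and the apex responds to long days without that block. FRI lies near the top of chromosome 4.

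The labels could not be checked on the alleles themselves, since none of FRI, FLC, SOC1, FT, LFY, AP1, FUL and SVP had a probe set assigned to that gene alone. The tissue label could be checked on few markers. Of the shoot meristem markers only POL, a phosphatase of the stem cell pathway, was tested, and of the organ primordium markers YAB3 and PHV. The sources of RNA from young organs and leaves were therefore not separated, and in these bulk apices fewer cells of a type and less RNA per cell cannot be told apart.

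The FRI(Sf-2)-flc-3 array of day 2 stood apart from the other 11 arrays. Its residual SD, the spread of its values around the fitted genotype and day means, was 0.165 log2, against 0.0969 to 0.132 on the others. Its spike-in control BioB read 9.53, against 7.13 to 7.79 on the others, and BioC read 9.90, against 7.74 to 8.40. The gap between the 3' and 5' probe sets for GAPDH was 1.36 log2 on this array and 0.765 to 1.16 on the others. The value without the day 2 pair of the flc-3 genotypes is given beside each result whose call it changed, and beside each named gene that it moved by over 1.5 times, which were 8 of the 46 named probe sets.

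**Figure D1:**
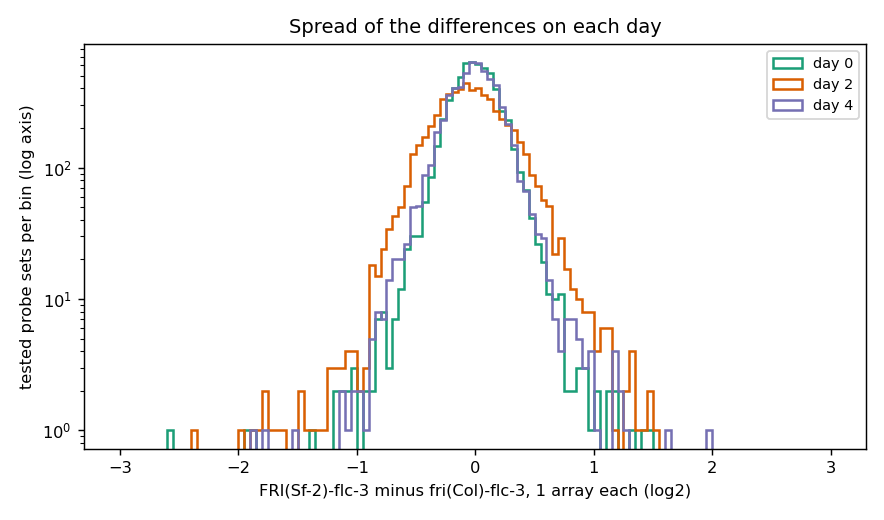
Number of tested probe sets (log axis, bins of 0.05 log2) by the difference FRI(Sf-2)-flc-3 minus fri(Col)-flc-3 on day 0, 2 and 4, with 1 array of each genotype behind each line. The day 2 line is the widest, with an SD of 0.334 log2, against 0.227 on day 0 and 0.243 on day 4.

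The SD of the differences between the genotypes over 6185 tested probe sets was 0.227 log2 on day 0, 0.334 on day 2 and 0.243 on day 4. With FLC intact the same SD was 0.231, 0.243 and 0.256 on these days. A difference beyond 1 log2 was seen without FLC for 22 probe sets on day 0, for 60 on day 2 and for 18 on day 4. Day 2 gave the largest difference of the 3 days for 3093 probe sets (50%) without FLC and for 2137 (34.6%) with FLC. The wide spread on day 2 thus belonged to the pair that held the array described above, and its part in single results was not tested beyond leaving the pair out.

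Few probe sets separated the FRI alleles when FLC was absent. With limma's moderated test and Benjamini-Hochberg adjustment, 5 of 6185 probe sets (0.0808%) passed an adjusted p of 0.05. Of these, 1 was higher (0.0162%) and 4 were lower (0.0647%) in FRI(Sf-2)-flc-3. Without the day 2 pair 6 passed (0.097%), and they included all 5. Leaving out the day 0 pair left 3 calls, and so did leaving out the day 4 pair. At an unadjusted p of 0.05, 556 probe sets differed (8.99%), of which 232 were higher (3.75%) and 324 lower (5.24%).

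The probe set for AT4G01590, a gene of chromosome 4, gave the largest difference. It read 3.81, 3.39 and 3.83 log2 on days 0, 2 and 4 in FRI(Sf-2)-flc-3, against 5.72, 5.75 and 5.70 in fri(Col)-flc-3. The genotypes did not overlap on any day, and the Sf-2 values lay near 3.56, the value that a probe set's mean had to exceed to be tested. The fitted difference was -2.05 ± 0.198 (SE), a 4.14-fold lower signal (limma adjusted p 0.000531), and without the day 2 pair it was -1.89 (adjusted p 0.0112). With FLC intact it was -2.0 (adjusted p 0.000701), from 3.98, 3.74 and 3.69 in FRI(Sf-2)-FLC(Col) and 5.28, 6.17 and 5.94 in fri(Col)-FLC(Col). The difference between these effects was -0.05 log2, with a 95% interval of -0.66 to 0.56. Whether its probes match the Sf-2 sequence as well as the Col one was not tested. Lower signal and less transcript therefore cannot be told apart here.

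The other 4 called probe sets had no gene in the platform annotation and are known here only by their identifiers. Probe set 15515_r_at read 7.35, 6.92 and 7.45 in FRI(Sf-2)-flc-3, against 9.20, 8.75 and 9.20 in fri(Col)-flc-3. The lowest fri(Col)-flc-3 array was well above the highest FRI(Sf-2)-flc-3 array. Its fitted difference was -1.81 ± 0.128 (limma adjusted p 5.0e-05), beside -1.62 (adjusted p 9.0e-05) with FLC.

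Probe set 12336_at read 4.17, 4.87 and 4.73 in FRI(Sf-2)-flc-3, against 5.23, 5.50 and 5.79 in fri(Col)-flc-3, so that these groups did not overlap. It was lower by a fitted -0.91 ± 0.103 (limma adjusted p 0.00212), and by -0.93 (adjusted p 0.00135) with FLC. Both this call and that of 16341_at were lost when the day 0 pair or the day 4 pair was left out, with limma adjusted p values then of 0.0822 to 0.136.

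These 3 probe sets, AT4G01590, 15515_r_at and 12336_at, were the ones called in both FLC backgrounds. They made up 60% of the 5 calls without FLC and 27.3% of the 11 calls with FLC. The comparisons without and with FLC used different arrays, though their tests share 1 estimate of the spread. For all 3 the sign was the same and the sizes lay within 0.2 log2 of each other.

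Probe set 16586_s_at was lower in FRI(Sf-2)-flc-3 alone among the 4 genotypes. It read 4.45, 4.5 and 4.72 in FRI(Sf-2)-flc-3, against 5.55, 5.64 and 5.82 in fri(Col)-flc-3. The fitted difference was -1.12 ± 0.0925 (limma adjusted p 0.000149), and it stayed called in each of the 25 other settings. In FRI(Sf-2)-FLC(Col) it read 5.52, 5.56 and 5.57, and in fri(Col)-FLC(Col) 5.46, 5.73 and 5.86, a difference of -0.13 (adjusted p 0.888). The test of the difference between the backgrounds gave -0.98 (limma adjusted p 0.0228). The difference was -0.97 without the day 2 pair and no longer passed (adjusted p 0.0728), and without all 4 day 2 arrays it was -0.99 (adjusted p 0.169). The call was also lost without the day 0 or day 4 array of FRI(Sf-2)-flc-3, without any 1 array of fri(Col)-flc-3, without the day 2 array of FRI(Sf-2)-FLC(Col), and without the day 0 array of fri(Col)-FLC(Col).

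Probe set 16341_at was the only one called higher. It read 5.59, 5.21 and 6.0 in FRI(Sf-2)-flc-3, against 4.11, 4.46 and 4.37 in fri(Col)-flc-3. Its fitted difference was 1.29 ± 0.153 (limma adjusted p 0.00289), a 2.45-fold higher signal. With FLC intact it was 0.03 (adjusted p 0.999), all 6 of those arrays lying between 4.16 and 4.32. The difference between the backgrounds was 1.26, with a 95% interval of 0.79 to 1.73, and did not pass (adjusted p 0.143). It was 1.53 without the day 2 pair and passed (limma adjusted p 0.00965), and so it did without all 4 day 2 arrays (adjusted p 0.0343).

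**Figure D2:**
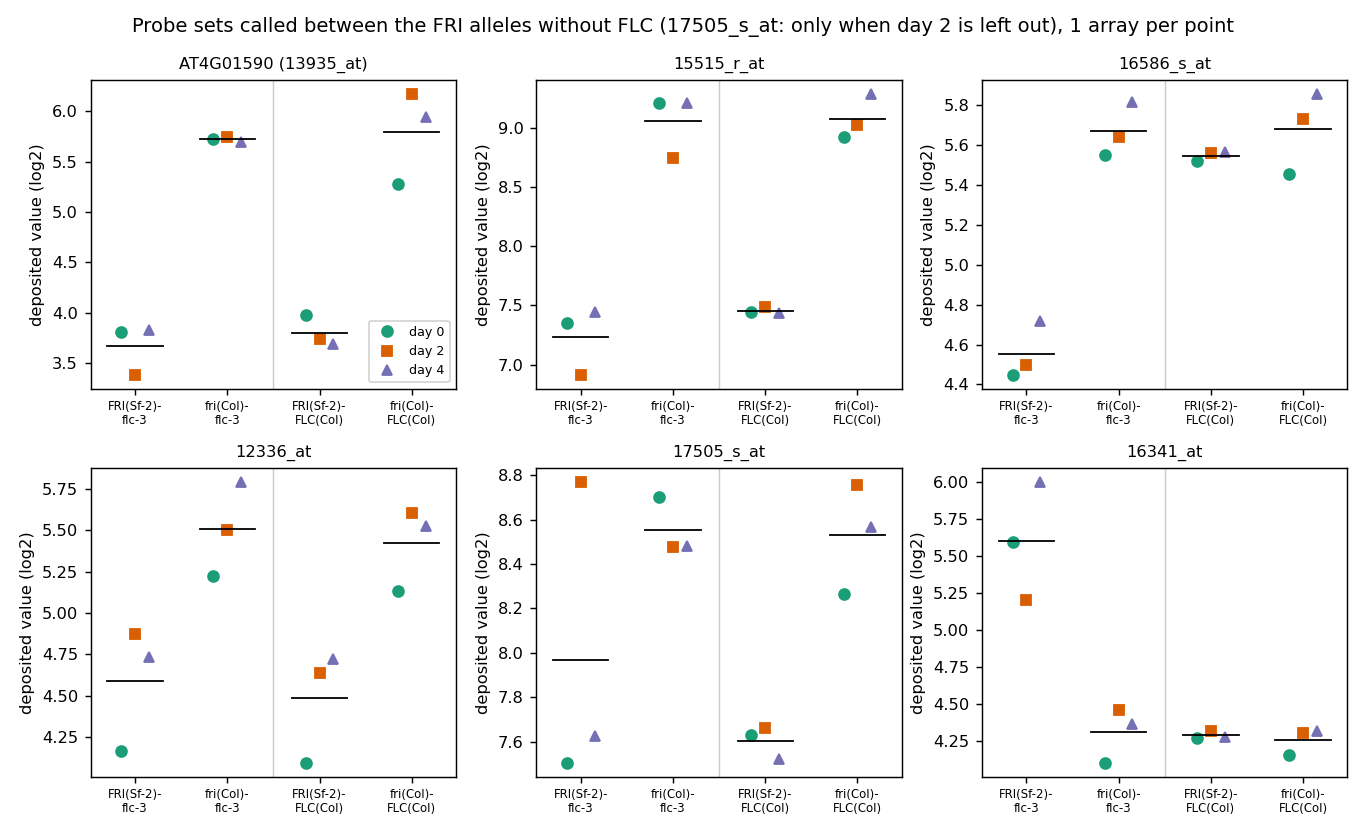
Deposited log2 value of the 6 probe sets called without FLC with or without the day 2 pair, in FRI(Sf-2)-flc-3, fri(Col)-flc-3, FRI(Sf-2)-FLC(Col) and fri(Col)-FLC(Col), 1 point per array and 1 symbol per day, with the mean over days as a line. 16586_s_at and 16341_at differ from the other 3 genotypes in FRI(Sf-2)-flc-3, and 17505_s_at reads 8.77 in FRI(Sf-2)-flc-3 on day 2, against 7.51 and 7.62 on days 0 and 4.

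Probe set 17505_s_at, which also has no gene in the annotation, passed only without the day 2 pair. It read 7.51, 8.77 and 7.62 in FRI(Sf-2)-flc-3, against 8.70, 8.48 and 8.48 in fri(Col)-flc-3. On day 2 the FRI(Sf-2)-flc-3 array was therefore above the Col array, while on the other days it was below. With all arrays the difference was -0.59 (limma adjusted p 0.482) and without day 2 it was -1.03 (adjusted p 0.0230). With FLC intact it was -0.92 (adjusted p 0.187), from 7.63, 7.66 and 7.52 in FRI(Sf-2)-FLC(Col) and 8.26, 8.75 and 8.57 in fri(Col)-FLC(Col).

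With FLC intact 11 probe sets passed (0.178%), of which 5 were higher and 6 lower (0.097%), and 425 (6.87%) had an unadjusted p under 0.05. Of the 11, 8 did not pass without FLC. The largest was 17501_s_at, at 2.64 with FLC (limma adjusted p 5.5e-05) and 0.41 without (adjusted p 0.566). Without FLC it read 6.09, 5.92 and 5.69 in FRI(Sf-2)-flc-3, against 5.86, 5.21 and 5.42 in fri(Col)-flc-3. The difference between the backgrounds was -2.23 (limma adjusted p 0.0148), and 17501_s_at and 16586_s_at were the 2 probe sets (0.0323%) for which that test passed. At an unadjusted p of 0.05 there were 449 (7.26%). Without the day 2 pair 3 passed, of which 17501_s_at was the only 1 shared with these 2, at -2.39 (adjusted p 0.0346). The other 2 were 16341_at and a probe set of AT4G24350. Without all 4 day 2 arrays 3 passed and none was shared, 17501_s_at then being at -2.24 (adjusted p 0.0884). No probe set passed that test without the day 0 or day 4 array of FRI(Sf-2)-flc-3 or of fri(Col)-flc-3, or without the day 2 array of FRI(Sf-2)-FLC(Col), while 9 passed without the day 0 array of FRI(Sf-2)-FLC(Col).

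Among these calls with a gene name were BGLU47, a member of the beta-glucosidase family, and AT1G52100, a jacalin-type lectin gene. BGLU47 read 5.11, 5.33 and 4.23 in FRI(Sf-2)-flc-3, against 4.78, 4.79 and 3.93 in fri(Col)-flc-3. Its difference was 0.39 without FLC (limma adjusted p 0.343) and 0.61 with FLC (adjusted p 0.0211). AT1G52100 had 0.23 without FLC (adjusted p 0.606) and 0.77 with FLC (adjusted p 0.0211). For neither gene did the test between backgrounds pass, with adjusted p values of 0.809 and 0.506.

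**Figure D3:**
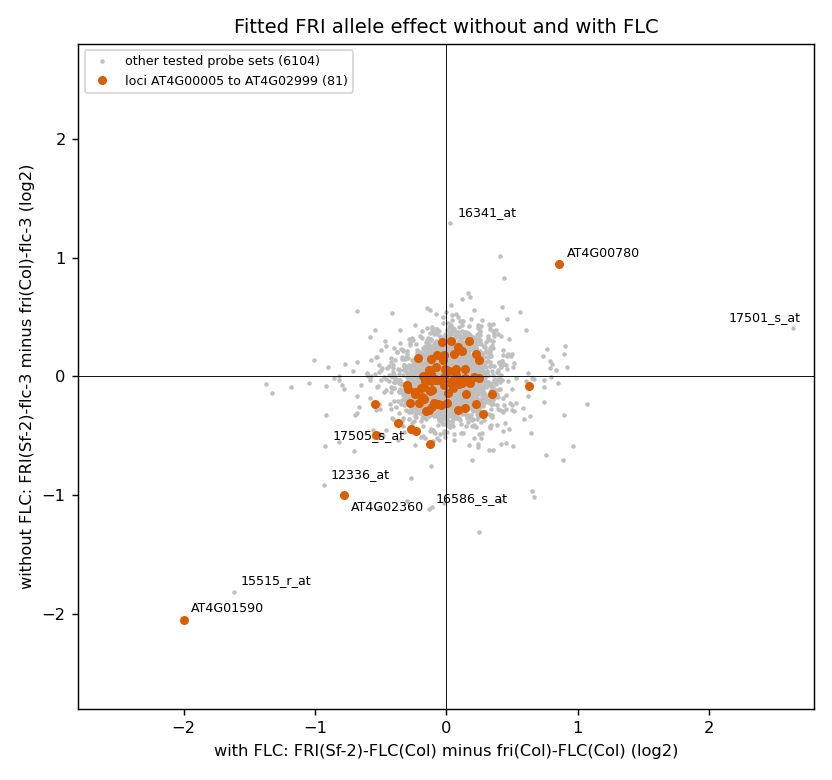
Fitted Sf-2 minus Col FRI difference (log2) without FLC (vertical) against that with FLC (horizontal), 1 point per tested probe set, with the 81 of loci AT4G00005 to AT4G02999 in orange. AT4G01590 and 15515_r_at lie far down on the diagonal, 16341_at lies on the vertical axis at 1.29, and 17501_s_at lies to the right at 2.64.

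Over all 6185 probe sets the effects without and with FLC had a Pearson r of 0.10 and a Spearman rho of 0.041 across probe sets, which are not independent. The 2 effects share no arrays. With all 4 day 2 arrays left out these were 0.23 and 0.23.

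The genes around FRI were then described as a group, because the Sf-2 allele was introgressed. FRI is locus AT4G00650, and 113 probe sets were assigned to 1 gene between AT4G00005 and AT4G02999. Of these, 81 were tested and 32 lay below the filter on dim probe sets, so that a gene silent in both alleles could not count. The chosen end of this stretch is arbitrary. Only AT4G01590 passed the adjusted test here, 1 of 81 (1.23%), beside 0 of 2653 probe sets with 1 gene elsewhere (0%). Among all probe sets 5 of 6185 (0.0808%) passed. The rest of these calls had no gene in the annotation, so whether they lie in the stretch is not known.

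At an unadjusted p of 0.05, 17 of 81 probe sets of this stretch (21%) differed without FLC, of which 4 were higher and 13 lower in FRI(Sf-2)-flc-3. Elsewhere in the genome 179 of 2653 probe sets with 1 gene (6.75%) did. Without the day 2 pair there were 24 of 81 (29.6%), with 10 higher and 14 lower, against 231 of 2653 elsewhere (8.71%), out of 658 of 6185 (10.6%) in all, 346 of them higher (5.59%) and 312 lower (5.04%). With FLC intact there were 10 of 81 (12.3%), against 140 of 2653 elsewhere (5.28%). The median absolute difference without FLC was 0.135 log2 in the stretch and 0.0894 elsewhere. These counts are descriptions, since neighbouring genes are not independent samples. How well the probes of these genes match the Sf-2 sequence was not tested.

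The members with such a p lay on both sides of FRI, with 2 of 9 before it and 15 of 72 after it. By locus number, 4 of 15 fell in AT4G00, 5 of 28 in AT4G01, and 8 of 38 in AT4G02. Beyond that, 0 of 16 fell in AT4G03 and 1 of 12 in AT4G04. Over AT4G03000 to AT4G09999 there were 4 of 52 (7.69%), beside 6.75% elsewhere. Of these 4, 3 fell in AT4G08, where 14 were tested (21.4%). Without the day 2 pair there were 6 of 52 (11.5%), beside 8.71% elsewhere. Of 66 windows of 1000 locus numbers with at least 20 tested probe sets, AT4G02 had the highest share without FLC, AT2G39 with 6 of 29 came next, and AT4G01 was tied for rank 3.

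**Figure D4:**
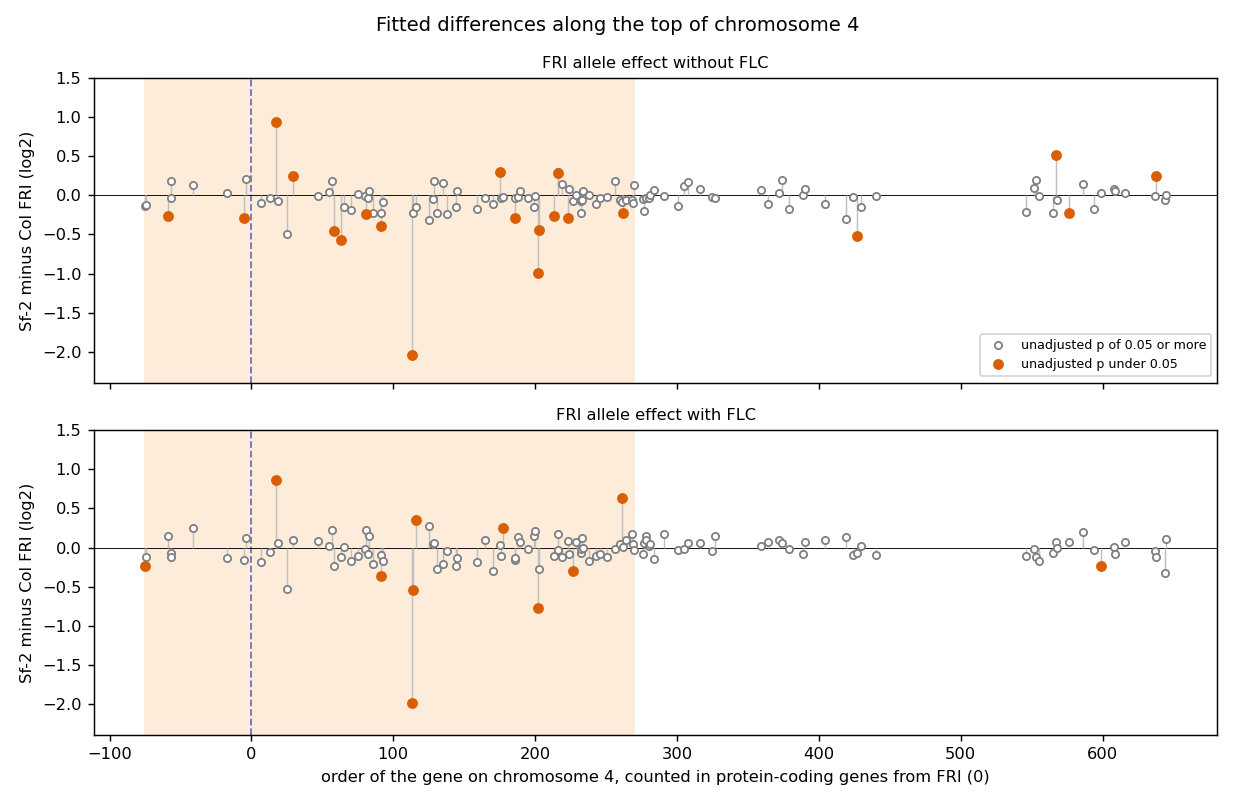
Fitted Sf-2 minus Col FRI difference (log2) without FLC (top) and with FLC (bottom) for 126 probe sets, by the order of their gene along chromosome 4 from FRI (dashed line). Filled points have an unadjusted p under 0.05, and the shaded band is AT4G00005 to AT4G02999, where 17 points are filled without FLC and 10 with FLC.

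The effects of the stretch without and with FLC had a Pearson r of 0.78 and a Spearman rho of 0.41 across 81 probe sets. Without AT4G01590 these were 0.59 and 0.38 across 80. Elsewhere they were 0.014 and 0.0045 across 2653. With all 4 day 2 arrays left out, r was 0.73 in the stretch and 0.19 elsewhere. All these values share 1 set of plants and arrays per effect and have no p.

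Differences beyond 0.2 log2 in both backgrounds, a size chosen after the values were seen, had the same sign for 10 of the 81 probe sets (12.3%) and opposite signs for 2 (2.47%). Elsewhere 38 of 2653 (1.43%) had the same sign and 36 (1.36%) opposite signs. Of the 17 with an unadjusted p under 0.05 without FLC, 12 had the same sign with FLC (70.6%), and 4 also had such a p there with that sign. Of the 179 elsewhere, 94 had the same sign (52.5%), and 10 had such a p with that sign and 8 with the opposite one. The 4 in the stretch were AT4G01590, AT4G02360, AT4G00780 and AT4G01395.

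AT4G02360 and AT4G02370 are adjacent genes of the DUF538 family, whose role is not known. AT4G02360 read 4.90, 5.36 and 4.97 in FRI(Sf-2)-flc-3, against 5.42, 7.11 and 5.70 in fri(Col)-flc-3. It was lower on each day, most on day 2. The fitted difference was -1.0 ± 0.241 without FLC and -0.78 with FLC (limma adjusted p 0.343 without FLC). It was -0.62 without the day 2 pair. AT4G02370 read 6.18, 6.26 and 6.22 in FRI(Sf-2)-flc-3, against 7.04, 6.48 and 6.48 in fri(Col)-flc-3. Its differences were -0.45 without FLC and -0.27 with FLC, and it did not pass either.

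AT4G00780, a gene for a TRAF-like family protein near FRI, differed the other way. It read 8.48, 7.07 and 7.0 in FRI(Sf-2)-flc-3, against 7.14, 6.43 and 6.13 in fri(Col)-flc-3. On each day the FRI(Sf-2)-flc-3 array was the higher, though the groups overlapped across days because both declined with time. The fitted difference was 0.95 ± 0.233 (limma adjusted p 0.343), and with FLC it was 0.86.

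AT4G01395 read 6.45, 6.32 and 6.56 in FRI(Sf-2)-flc-3, against 6.90, 6.91 and 6.70 in fri(Col)-flc-3. The groups did not overlap. The difference was -0.39 without FLC and -0.37 with FLC. A second probe set of this gene gave -0.23 and -0.10, with an unadjusted p of 0.169 without FLC.

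Smaller differences were seen for genes with general roles in the cell. AT4G02480, an AAA-type ATPase gene, read 9.23, 9.21 and 9.24 in FRI(Sf-2)-flc-3, against 8.90, 8.83 and 9.06 in fri(Col)-flc-3. Its difference was 0.29 ± 0.0898 without FLC, where a second probe set gave 0.30, and -0.04 with FLC. AT4G02450, a p23-like co-chaperone gene, read 8.23, 8.30 and 8.79 in FRI(Sf-2)-flc-3, against 8.54, 8.73 and 8.84 in fri(Col)-flc-3. Neither passed the adjusted test. AT4G01310, for a ribosomal protein of the large subunit of plastids, had -0.23 without FLC and 0.22 with FLC. The test between backgrounds did not pass for it (limma adjusted p 0.536). AT4G02200, of the drought-responsive Di19 family, had -0.28 without FLC, with -0.04 from its second probe set, and -0.13 with FLC.

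AT4G01130, a GDSL-type lipase-like gene, read 3.68, 3.14 and 3.49 in FRI(Sf-2)-flc-3, against 4.61, 3.73 and 3.67 in fri(Col)-flc-3. Its difference was -0.57 ± 0.155, from values near the filter. TBL26, of the trichome birefringence-like family, read 3.71, 3.72 and 3.60 in FRI(Sf-2)-flc-3, against 3.72, 4.81 and 3.86 in fri(Col)-flc-3. Its fitted difference of -0.46 came mostly from the single Col array of day 2, and without the day 2 pair it was -0.14. The remaining members with an unadjusted p under 0.05 were AT4G00590, AT4G02530, AT4G00165 and AT4G02860, lower by fitted values of -0.29 to -0.22, and AT4G00890 and AT4G02100, higher by 0.25 and 0.29. With FLC, AT4G02530, AT4G00165 and AT4G02860 had the opposite sign, at 0.09, 0.14 and 0.0047. AT4G00590, AT4G00890 and AT4G02100 kept their sign there, at -0.16, 0.09 and 0.04. In the comparison without FLC, AT4G02860 was at -0.12 when the day 2 pair was left out. Without that pair TBL26, AT4G02450, AT4G01310 and AT4G02860 no longer had an unadjusted p under 0.05. Those named in the stretch that did not pass had adjusted p values of 0.343 to 0.545 with limma.

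Outside the stretch no probe set with a gene name passed. Among all 6185 tested probe sets 8.99% had an unadjusted p under 0.05 without FLC, whatever their signs by day. Of the 2736 tested with 1 gene, 180 had such a p and the same sign on all 3 days. Of these, 79 were higher and 101 lower. The 12 largest in each direction were followed by name, and except for AT4G01590 their adjusted p was 0.285 to 0.545. They are therefore given as values. EEL, ARPN, CHI and AT4G11911 had an unadjusted p of 0.05 or more without the day 2 pair.

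AT2G30540, a CC-type glutaredoxin gene, had the smallest of these adjusted p values. It read 6.66, 5.99 and 6.04 in FRI(Sf-2)-flc-3, against 5.69, 5.31 and 5.19 in fri(Col)-flc-3, so that each FRI(Sf-2)-flc-3 array was above all 3 Col arrays. The difference was 0.83 ± 0.180 (limma adjusted p 0.285) without FLC and 0.44 with FLC. It passed in 2 of the other settings. AT1G03020, another CC-type glutaredoxin gene, had a difference of 0.60 ± 0.140 without FLC and 0.03 with FLC. Its values were 5.05, 4.43 and 3.66 in FRI(Sf-2)-flc-3, against 4.34, 3.77 and 3.23 in fri(Col)-flc-3.

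AT1G12080, a vacuolar calcium-binding protein-related gene, read 6.89, 7.14 and 6.87 in FRI(Sf-2)-flc-3, against 6.23, 6.32 and 6.25 in fri(Col)-flc-3. The groups did not overlap, and the difference was 0.70 ± 0.162 without FLC and 0.17 with FLC (limma adjusted p 0.343 without FLC). EEL, a bZIP transcription factor that acts in the late embryo and in abscisic acid responses, read 5.12, 5.95 and 5.79 in FRI(Sf-2)-flc-3, against 4.72, 4.99 and 5.59 in fri(Col)-flc-3. Its difference was 0.52 without FLC, or 0.30 without the day 2 pair, and -0.08 with FLC. AT2G39850, a subtilase gene, had 0.54 without FLC and 0.56 with FLC.

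DI21, a drought-induced gene, read 8.47, 8.92 and 8.62 in FRI(Sf-2)-flc-3, against 8.37, 8.2 and 7.78 in fri(Col)-flc-3. The groups did not overlap, and its difference was 0.56, with 0.28 from its second probe set. ARPN, a plantacyanin that acts in the pistil and pollen tube, had 0.58, or 0.36 without the day 2 pair, and its other probe sets gave 0.21 and 0.47. AT3G58610, for ketol-acid reductoisomerase of branched-chain amino acid synthesis, read 9.9, 10.05 and 10.23 in FRI(Sf-2)-flc-3, against 9.86, 9.99 and 9.04 in fri(Col)-flc-3. Its difference of 0.43 came from day 4, and its second probe set gave -0.09. AT4G08190 and AT2G22720 had 0.52 and 0.47.

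COR15B, a cold-regulated chloroplast protein, had the largest difference among the named genes after AT4G01590. It read 4.26, 4.18 and 3.78 in FRI(Sf-2)-flc-3, against 6.83, 5.22 and 4.10 in fri(Col)-flc-3. The gap was -2.57 on day 0, -1.04 on day 2 and -0.33 on day 4, and on the last day it was small. The fitted value was -1.31 ± 0.418 (limma adjusted p 0.402), with 0.25 in the presence of FLC, and the test between the backgrounds did not pass (adjusted p 0.663). COR15B read 5.01, 3.32 and 3.87 in FRI(Sf-2)-FLC(Col), and 4.09, 3.16 and 4.21 in fri(Col)-FLC(Col). Its mean was thus high only in fri(Col)-flc-3, at 5.39, against 4.07 in both genotypes with the Sf-2 allele and 3.82 in fri(Col)-FLC(Col).

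AT4G24350 and CHI, here the putative chitinase gene AT2G43570, also had lower values without FLC and the opposite sign with FLC. AT4G24350 had -0.96 without FLC, or -0.63 without the day 2 pair, and 0.65 with FLC, and its second probe set gave -0.22 and -0.17. CHI read 6.83, 6.83 and 6.51 in FRI(Sf-2)-flc-3, against 7.26, 7.69 and 6.91 in fri(Col)-flc-3, and its differences were -0.56 without FLC and 0.45 with FLC. With all arrays none of these passed the test of the difference between backgrounds. The difference for AT4G24350 was -1.28 without the day 2 pair and passed (limma adjusted p 0.0270), while its second probe set did not pass. Without all 4 day 2 arrays the first probe set was at -1.27 and did not pass (limma adjusted p 0.0832).

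AT2G28720, a histone H2B gene, read 4.73, 4.41 and 4.22 in FRI(Sf-2)-flc-3, against 5.57, 4.68 and 4.61 in fri(Col)-flc-3. It was lower on each day, most on day 0, with a fitted -0.51 ± 0.123. MSRB5, a methionine sulfoxide reductase gene, read 7.54, 5.65 and 3.81 in FRI(Sf-2)-flc-3, against 7.93, 5.95 and 4.69 in fri(Col)-flc-3. In both genotypes it was lowest on day 4, and the fitted difference was -0.52 ± 0.172. AT1G11850, AT4G11911, AT2G45600 and AT2G39980 had differences between -0.52 and -0.47.

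**Figure D5:**
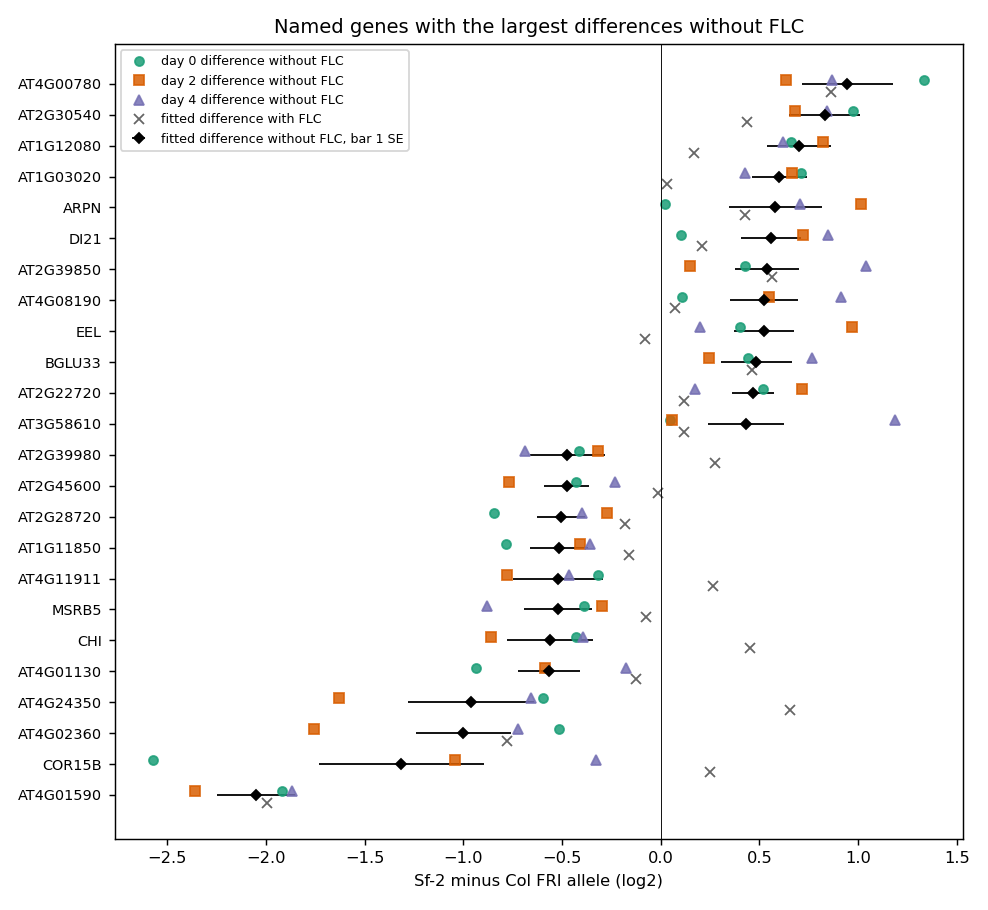
Differences between Sf-2 and Col FRI (log2) for the 12 largest in each direction among probe sets with 1 gene: the fitted difference without FLC with 1 SE, the difference on each day without FLC, and the fitted difference with FLC. The day values of COR15B spread from -2.57 to -0.33, while those of AT1G12080 lie between 0.62 and 0.82.

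Genes of the flowering pathways were sparse on this array and none was called. Of the lists, those of the FRI complex, the FLC clade, vernalization and gibberellin had 0 tested probe sets. In the autonomous pathway, which keeps FLC low, LD had a difference of -0.07, against -0.30 with FLC. LD is AT4G02560 and lies in the stretch around FRI. In the photoperiod list the only gene tested was GI, a clock-controlled gene that promotes CO, with 3 probe sets at -0.31, -0.25 and -0.02, against 0.33, 0.21 and 0.41 for the same probe sets with FLC. An unadjusted p under 0.05 held for 2 of them without FLC, where 8.99% of all probe sets had one, and none passed. Without the day 2 pair these were at -0.25 and -0.09, and 0 of the 3 had such a p. UFO, a floral regulator, had -0.21, from -0.10, 0.19 and -0.71 on days 0, 2 and 4. Without the day 2 pair it had an unadjusted p under 0.05, where 10.6% of all probe sets had one.

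CCL, a gene with a diurnal rhythm of transcript level, read 9.31, 7.48 and 7.21 in FRI(Sf-2)-flc-3, against 9.61, 8.25 and 7.47 in fri(Col)-flc-3. Its difference was -0.44 (limma adjusted p 0.343) without FLC, or -0.28 without the day 2 pair, and 0.48 with FLC. The test between backgrounds gave -0.92 (adjusted p 0.143) and did not pass. GI and CCL follow the time of day, and the labels did not give the hour of harvest, so a difference in that hour and one in genotype cannot be told apart.

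The remaining lists showed no call. The lectin and beta-glucosidase list had 10 tested probe sets with a median difference of 0.16 without FLC and 0.36 with FLC, beside a median of -0.02 over all probe sets tested without FLC. In it BGLU33, at 0.48, and BGLU47, at 0.39, had an unadjusted p under 0.05 without FLC. Among all probe sets 3.75% were higher with such a p. BGLU25, BGLU15 and JAL23 were lower, at -0.18, -0.15 and -0.09. The cold list had 6 probe sets of 4 genes and a median of -0.19. The defence list had 5 probe sets between -0.23 and 0.08, and the RNA polymerase list 4 between -0.19 and 0.11. The cell cycle list had 3 between -0.13 and -0.09. In it PRL, which is AT4G02060 in the stretch around FRI, had -0.79, 0.70 and -0.24 on days 0, 2 and 4. Without the day 2 pair 1 cell cycle probe set had an unadjusted p under 0.05, where 10.6% of all probe sets had one.

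Few markers of other cells could be measured. Of 5 mature leaf probe sets, which were for RCA, SBPASE and PSAE-1, the differences ran between -0.26 and 0.07. An unadjusted p under 0.05 held for 1 of them, where 8.99% of all probe sets had one. It was a probe set of PSAE-1, at -0.26, while the other probe sets of that gene gave 0.07 and -0.01. POL had -0.05, and the 3 organ primordium probe sets lay between -0.15 and 0.18. Among these YAB3, with 0.18 and -0.04, is AT4G00180 and lies in the stretch around FRI, so it is no neutral marker here. Without the day 2 pair its first probe set was at 0.23 (limma unadjusted p 0.0456). In that setting 10.6% of all probe sets had an unadjusted p under 0.05. The root, epidermis and vasculature lists had 0 tested probe sets, and of 2 flower, pollen and seed probe sets none passed the filter. The part of tissue makeup in the calls was not tested.

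The effect of the allele was not seen to differ between days. The test by day averaged both FLC backgrounds, because each genotype and day held 1 array. It called 0 of 6185 probe sets (0%) for day 2 against day 0 with limma, where 412 (6.66%) had an unadjusted p under 0.05. For day 4 against day 0 it also called 0 (0%), with 116 (1.88%). All 5 probe sets called without FLC had the same sign on the 3 days. Of these, AT4G01590, 15515_r_at and 16586_s_at were lower by over 1 log2 on every day, and no probe set was higher by that much on every day. The day values of the 5 are those behind their calls, so they are a description and no test of steadiness over days.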

How the data were processed

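Shoot apex RNA of 4 genotypes on 3 days was measured on 12 one-colour oligonucleotide arrays. The authors deposited 1 log2 value per probe set and array, running between 2.12 and 13.18. The unit was read from the values. Software and normalization: not given in the sources used here. Array medians of the deposited values spanned 0.058 log2, and the values were used as deposited. Of 8297 probe sets, 50 controls were left out. The platform annotation gave 1 gene for 3794 of the others, several for 70 and none for 4383, and 3784 of the 3794 were found in the TAIR10.1 gene table. No coordinates are given, since no build is named.

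The filter kept 6185 probe sets with a mean above the 25th percentile (3.56). limma 3.58.1 in R 4.3.3 fitted genotype and day additively on all 12 arrays (eBayes with a trend, two-sided, Benjamini-Hochberg, threshold 0.05). The residual degrees of freedom were 6, and the prior contributed 5.93. Each SE therefore measures what the additive model leaves, not the spread between replicates, and the number of arrays limits the precision. The model by day left 4. The script was tested on simulated data. Named probe sets are all those called, those with a gene called with FLC, the 12 largest in each direction with 1 gene, an unadjusted p under 0.05 and 1 sign on all days, those near FRI with such a p, and list members with such a p. Members and lists were chosen with earlier results of these data known.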

Additional observations from a re-analysis of the deposited data

Results flagged for a closer look

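Probe set 16586_s_at had an effect of the Sf-2 allele that differed between the FLC backgrounds, by -0.98 log2 (limma adjusted p 0.0228), with -1.12 without FLC and -0.13 with FLC. Probe set 17501_s_at differed between the backgrounds by -2.23 log2 (limma adjusted p 0.0148), with 0.41 without FLC and 2.64 with FLC. Neither call held without the day 0 or the day 4 pair of the flc-3 genotypes, or without all 4 day 2 arrays (adjusted p 0.169 for 16586_s_at and 0.0884 for 17501_s_at). Without the day 2 pair of the flc-3 genotypes 17501_s_at passed (adjusted p 0.0346) and 16586_s_at did not (0.0728).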

How the results depend on the processing

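All 46 named probe sets kept their sign in each of the 25 other settings in which they were tested. Of these, 45 had an unadjusted p under 0.05 on the same arrays, so a kept sign was likely from the outset. Without FLC, against 5 calls, there were 3 without the day 0 pair, 3 without the day 4 pair, 11 from the 6 flc-3 arrays alone and 2 with the filter at the 50th percentile, while leaving out 1 array gave 5 to 7. With FLC, against 11, there were 7 without all day 2 arrays, 7 with day as a number and 37 with array weights. Leaving out 1 array gave 6 to 18, with 6 without the fri(Col)-FLC(Col) array of day 0 or day 2, 7 without the FRI(Sf-2)-FLC(Col) array of day 2 and 18 without that of day 0. For the difference between backgrounds, against 2, there were 0 without the day 0 pair and 0 without the day 4 pair. There were 3 without the day 2 pair, with 1 shared, and 3 without all day 2 arrays, with 0 shared. Leaving out 1 array gave 0 to 9 there: 0 without the FRI(Sf-2)-flc-3 or fri(Col)-flc-3 array of day 0 or day 4, or the FRI(Sf-2)-FLC(Col) array of day 2, 1 without the fri(Col)-flc-3 array of day 2 or the fri(Col)-FLC(Col) array of day 0, 4 without the fri(Col)-FLC(Col) array of day 2 or day 4, and 9 without the FRI(Sf-2)-FLC(Col) array of day 0. Leaving out a pair also leaves fewer arrays, and the cause was otherwise not tested. The test by day called 0 in each setting run.

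Around FRI, against 1 call, there was 0 with the stretch ending at AT4G00999. With an unadjusted p under 0.05 there were 17, or 4 ending at AT4G00999, 18 ending at AT4G05999 and 24 without the day 2 pair, the last an alternative chosen after seeing the data. Values near the filter, as for AT4G01590 in FRI(Sf-2)-flc-3, limit what a fold can show.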
